A study of Mus musculus with 16 samples.

Results

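The 41 genes described here encode subunits of the oxidative phosphorylation system that are made from nuclear DNA: 21 of complex I, 4 of complex II, 6 of complex III, 7 of complex IV and 3 of complex V. They are a fixed list of symbols, drawn up with earlier results of these data known although its rule uses no measured value, out of 55414 gene entries, and all 41 were matched by Ensembl identifier and passed the filter on low counts. Complex I (NADH dehydrogenase) and complex II (succinate dehydrogenase) pass electrons to ubiquinone, complex III (cytochrome bc1) takes them on to cytochrome c, complex IV (cytochrome c oxidase) hands them to oxygen, and complex V (ATP synthase) uses the proton gradient that complexes I, III and IV build. Except for complex II, each also needs subunits encoded by mitochondrial DNA, so that 2 genomes have to supply a matched set of parts. Blood-forming stem cells are known for relying little on respiration at rest and for raising it when they start to divide and differentiate.

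RNA was sequenced from mouse bone marrow cells in a study of mRNA lifetimes and the RNA acetyltransferase Nat10. Marrow depleted of mature lineages was cultured in medium holding thrombopoietin, heparin and stem cell factor, 5 µM actinomycin D stopped transcription, and haematopoietic stem cells were sorted. The groups were cells labelled Nat10-deficient (Nat10-/- in the titles) at 0, 1, 3 and 5 h and WT cells at the same times, with 2 files in each of the 8 groups. The way the deficiency was made, the age of the mice and how many were used are not given in the sources used here; the titles name 32D cells, a mouse myeloid cell line, whereas other labels name marrow LT-HSCs (long-term repopulating stem cells). Counts per file totalled 9142413 to 17274128. Both files of a group name the same alignment in their headers in 8 of 8 groups and differed by little more than counting noise (chi-square per degree of freedom 1.43 to 1.81, against 47.9 to 256 between neighbouring times), so p-values from the 16 files measure only the spread between such files, which may be technical. The genotype differences at 0 h and over the mean of the times were therefore also fitted, like the slopes after the block, with both files of a group summed to 1 library; the other counts have no such fit. Nat10 mRNA, the check on the genotype labels, averaged 89.8, 74.4, 99.4 and 144 counts scaled to library size by TMM (CPM) at 0, 1, 3 and 5 h in libraries labelled Nat10-deficient, against 71.4, 81.0, 43.0 and 36.8 in WT libraries, which goes against the label at 0, 3 and 5 h; the cells are therefore called by their label throughout. ERCC spike-in RNA, of which the labels say that each sample got an equal amount, took 0.0221% to 0.129% of counts in libraries labelled Nat10-deficient and 1.79% to 2.92% in WT libraries.

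Binding words of respiratory gene regulators stood in part of the subunit promoters, at higher shares than among all promoters. Nuclear respiratory factor 1 (NRF1), GA-binding protein (GABPA) and YY1 are transcription factors known for acting on respiratory chain genes. RefSeq promoter windows of GRCm38.p6, from 250 bases before to 50 after the annotated start, were at hand for 31 of the 41 genes (33 windows). The 4 windows shown belong to the genes with the largest genotype difference that had an entry, namely Uqcrc1 (chr9:108936398-108936697, plus strand), Cox5a (chr9:57520982-57521281, plus strand), Sdhd (chr9:50603800-50604099, minus strand) and Atp5b (chr10:128083057-128083356, plus strand). Capitals mark the NRF1 word (GCGC, then A, then any base N, then GCGC), the GABPA word CCGGAAG and the YY1 word AAGATGG, read on both strands.
Uqcrc1: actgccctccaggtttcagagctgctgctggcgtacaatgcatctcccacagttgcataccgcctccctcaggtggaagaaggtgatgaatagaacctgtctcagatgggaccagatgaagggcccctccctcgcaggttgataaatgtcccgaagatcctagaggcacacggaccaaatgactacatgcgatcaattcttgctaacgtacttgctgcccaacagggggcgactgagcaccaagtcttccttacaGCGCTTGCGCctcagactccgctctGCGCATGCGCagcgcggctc
Cox5a: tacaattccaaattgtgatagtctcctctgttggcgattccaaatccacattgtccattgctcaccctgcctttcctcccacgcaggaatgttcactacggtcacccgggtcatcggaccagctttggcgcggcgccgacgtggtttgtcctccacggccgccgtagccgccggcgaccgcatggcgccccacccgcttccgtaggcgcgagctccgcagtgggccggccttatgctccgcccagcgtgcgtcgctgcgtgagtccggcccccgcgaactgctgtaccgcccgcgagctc
Sdhd: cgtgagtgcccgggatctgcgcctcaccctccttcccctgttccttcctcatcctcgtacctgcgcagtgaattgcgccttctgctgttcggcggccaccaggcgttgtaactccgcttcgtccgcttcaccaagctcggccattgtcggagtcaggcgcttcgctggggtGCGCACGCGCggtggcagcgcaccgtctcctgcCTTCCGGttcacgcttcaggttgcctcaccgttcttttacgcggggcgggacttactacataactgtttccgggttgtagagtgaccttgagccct
Atp5b: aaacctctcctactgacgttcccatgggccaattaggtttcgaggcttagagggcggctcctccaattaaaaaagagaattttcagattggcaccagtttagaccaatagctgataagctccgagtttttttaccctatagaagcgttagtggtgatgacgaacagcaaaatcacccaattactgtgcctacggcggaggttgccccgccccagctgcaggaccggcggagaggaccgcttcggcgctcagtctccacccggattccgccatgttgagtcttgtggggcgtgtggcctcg

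Uqcrc1 held 2 NRF1 words just after its start, one of which, GCGCATGCGC, reads the same on both strands. Sdhd held 1 NRF1 word and 1 GABPA word before its start. Cox5a and Atp5b held none of these 3 words in the window, which says only that these letters are not there. NRF1's word was in 27.3% of the 33 subunit windows and in 4.60% of all 32851 windows. The share was 21.2% against 8.86% for GABPA and 18.2% against 6.34% for YY1. At least 1 of the 3 words stood in 60.6% of subunit windows and 17.95% of all windows. The SP1 word GGGCGG was about as common in both (39.4% and 35.7%), as was the ESRRA word AAGGTCA (6.06% and 4.72%). These shares are a description and were not tested.

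Before the transcription block, the ATP synthase head and a few subunits of complexes II and IV led the set. Levels are compared between genes per length, as RPKM, that is, counts scaled by TMM (the trimmed mean of M values, which sets each library against the bulk of its genes) and divided by exon length, with the standard deviation of 2 files. Atp5b, the catalytic beta subunit of ATP synthase (ENSMUSG00000025393, GRCm39 chr10:127919142-127926260, plus strand), was highest at 518 ± 0.0782 in labelled Nat10-deficient libraries and 342 ± 0.238 in WT libraries. Next were Sdhd, which anchors succinate dehydrogenase in the membrane, at 264 ± 5.53 in labelled Nat10-deficient libraries and 177 ± 0.127 in WT libraries, and the small cytochrome c oxidase subunit Cox8a, at 261 ± 8.46 in labelled Nat10-deficient libraries and 168 ± 2.77 in WT libraries. Atp5a1, the alpha subunit beside Atp5b in the head, stood at 252 ± 0.307 in labelled Nat10-deficient libraries and 174 ± 4.58 in WT libraries. At the low end, both in the membrane arm of complex I, Ndufs5 averaged 5.20 ± 0.666 in labelled Nat10-deficient libraries and 2.79 ± 0.499 in WT libraries and Ndufb6 1.22 ± 0.729 in labelled Nat10-deficient libraries and 1.02 ± 0.229 in WT libraries. The complex I subunits had a median of 26.2 RPKM in libraries labelled Nat10-deficient and 20.4 in WT libraries at 0 h, with Ndufs8, Ndufa9 and Ndufb9 at the top in libraries labelled Nat10-deficient and Ndufa8 at the top in WT. Neighbours in this order did not always differ beyond their spread: in libraries labelled Nat10-deficient Sdhd (268 and 260.3) and Cox8a (255 and 267) overlapped, and both Atp5a1 files lay just below them, the higher at 253 RPKM. The order of the 41 levels at 0 h was much the same in both genotypes (Pearson's r = 0.99 and Spearman's rho = 0.98 over 41 genes of log2 RPKM, which share library and length and are no independent replicates).

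**Figure D1:**
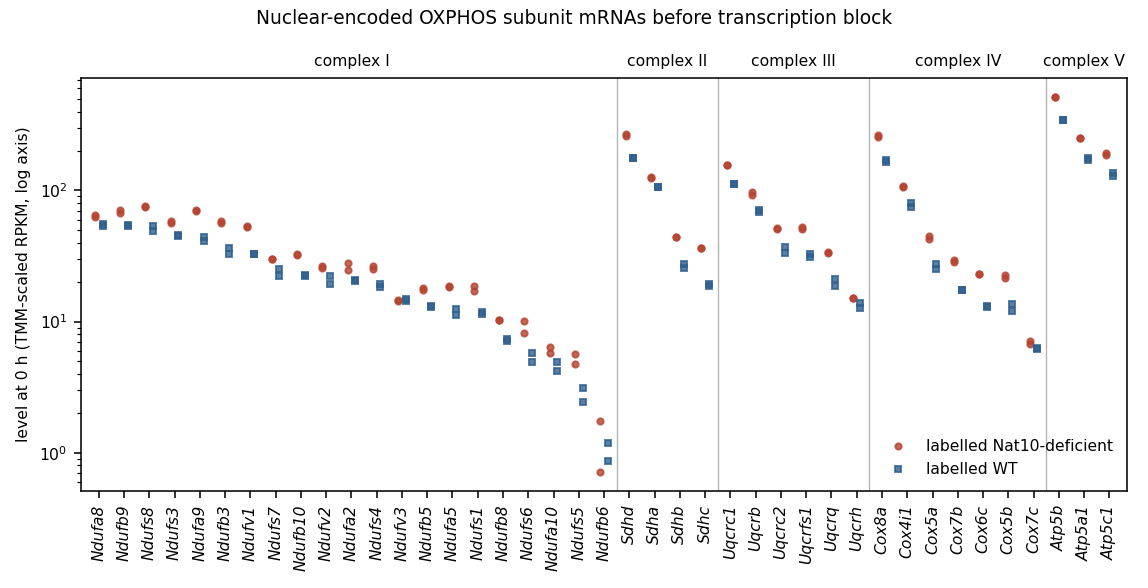
Level of each of the 41 subunit mRNAs at 0 h, in TMM-scaled RPKM on a log axis, by complex; circles are the 2 files labelled Nat10-deficient and squares the 2 WT files. Levels ran from about 1.02 RPKM for Ndufb6 in WT libraries to 518 for Atp5b in libraries labelled Nat10-deficient, and for most genes the circles lie above the squares.

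Relative to other genes, most subunit mRNAs were higher in libraries labelled Nat10-deficient than in WT libraries at each of the 4 times, except that with scaling on long-lived reference mRNAs the direction turned at 3 h. At 0 h, edgeR's quasi-likelihood test with Benjamini-Hochberg adjustment called 37 of 41 higher, against 36.0% of all 25081 genes tested, and 0 lower, against 24.2%; 0 were lower at an unadjusted p under 0.05, and 0 by DESeq2. The median log2 difference was 0.54 over the 41 and 0.10 over all genes. At 1 h 36 were called higher (32.4% of all genes) and 0 lower (31.8%), with 0 lower at an unadjusted p under 0.05 and 0 by DESeq2, and medians of 0.78 and 0.00. At 3 h the counts were 40 higher (30.4%) and 0 lower (37.0%), again 0 lower at an unadjusted p under 0.05 and 0 by DESeq2, with medians of 0.73 and -0.068. At 5 h 35 were higher (34.2%) and 1, Ndufv3, lower (30.1%), with medians of 0.93 and 0.099. Averaged over the 4 times, 39 of 41 were higher (31.6% of all genes) and 0 lower (21.6%), with a median of 0.77 against 0.11; 0 were lower at an unadjusted p under 0.05, and DESeq2 called 1 lower, Ndufv3 (log2 -0.14).

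The spread behind these counts is that between the 2 files of a group. On summed files, edgeR called 0 of 41 higher at 0 h and 0 lower (0.00% and 0.00% of all genes), with 12 higher and 0 lower at an unadjusted p under 0.05 and a median of 0.62. For the mean of the times the summed fit called 0 higher and 0 lower (0.0319% and 0.0359% of all genes), with 32 higher at an unadjusted p under 0.05, 0 lower and a median of 0.76. The shares of all genes at the unadjusted threshold were not worked out, so the 12 and the 32 are not read as particular to the set. DESeq2 was not run on the summed files. File by file, 39 (0 h), 40 (1 h), 41 (3 h) and 37 (5 h) members had both files labelled Nat10-deficient above both WT files. The groups overlapped for Ndufv3 and Ndufb6 at 0 h, for Cox7c at 1 h, and for Ndufb6 and Cox7c at 5 h, where Ndufv3 and Uqcrh were lower in both files. Together the 41 mRNAs took 0.903, 1.04, 0.849 and 1.598% of gene counts in libraries labelled Nat10-deficient at the successive times, against 0.726, 0.569, 0.364 and 0.328% in WT libraries. Of the counts outside immunoglobulin genes they took 0.971, 1.15, 1.17 and 1.67%, against 0.755, 0.789, 0.811 and 0.980% in WT libraries. The fall of the share in WT libraries was thus seen only with immunoglobulin genes counted in. In all, 34 members were called higher at all 4 times, 2 at 3 times, 1 at 2 times and 4 at 1 time, and in 32 the log2 difference at 5 h was above that at 0 h. The shares of all genes for these counts, and for files that did not overlap, were not worked out. These counts are therefore not read as particular to the set. In these bulk libraries fewer cells of a type and less RNA per cell cannot be told apart.

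**Figure D2:**
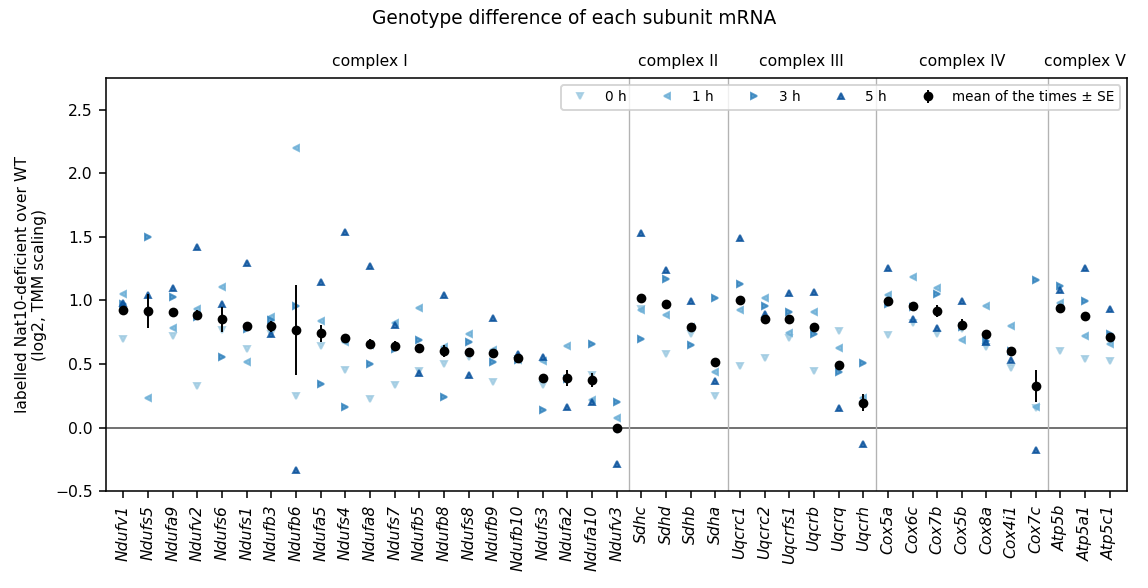
Difference of each subunit mRNA between libraries labelled Nat10-deficient and WT libraries, as log2 ratio with TMM scaling, by complex and ordered within each by the mean of the times; black points are that mean with its standard error and triangles the 4 times. Points lie above 0 for 40 of 41 genes over the mean of the times; with scaling on long-lived reference mRNAs they do for 32.

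How far the set stood above WT depended on what the libraries were scaled to. A scaling gives all genes of a library the same factor, so rescaling does not test the set's place above the median gene. The fitted medians nevertheless moved by unlike amounts, so the gap between them depended on the scaling as well. At 5 h the medians of the subunits and of all genes were 0.93 and 0.099 with TMM scaling, and 0.42 and -0.015 with reference scaling. The reason was not tested. The 33 long-lived reference mRNAs (cytoskeleton, translation factor and glycolysis genes and the like) were themselves higher in libraries labelled Nat10-deficient, with 32 of 33 called higher over the mean of the times and 0 lower (median 0.57). Long-lived is the name of the list only. After the block 33 of 33 fell per ERCC count in each genotype. Their median slopes were -0.34 (labelled Nat10-deficient) and -0.26 (WT) log2 per hour, near the subunits' -0.32 and -0.27. Scaling on them shifted the median of all genes by -0.15, -0.44, -0.83 and -0.11 at 0, 1, 3 and 5 h. The median of the 41 subunits went from 0.54, 0.78, 0.73 and 0.93 to 0.21, 0.21, -0.10 and 0.42, a larger move at 0, 1 and 5 h. Under it 28 members were higher and 2 lower at 0 h (23.7% and 36.4% of all genes), with a median of 0.21 against -0.049 for all genes. At 1 h the counts were 24 and 4 (17.0% and 49.9%), with medians of 0.21 and -0.44. At 3 h only 8 were higher and 18 lower (11.5% and 59.6%), with medians of -0.10 and -0.90. The set's median was thus below 0 at that time, as was that of all genes. At 5 h 27 were higher and 7 lower (23.6% and 38.9%), with medians of 0.42 and -0.015. For the mean of the times 27 were higher and 7 lower (14.0% and 38.5%), with medians of 0.22 and -0.40. The 7 lower members were Ndufs3, Ndufv3, Ndufa2, Ndufa10, Sdha, Uqcrq and Uqcrh. With ERCC scaling all 41 were called higher at 0 h and over the mean of the times (87.3% and 71.5% of all genes), with a median of 6.48 against 5.54 over the mean; the spike-in share differed between the genotypes as given above, and cell numbers are not given in the sources used here.

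**Figure D3:**
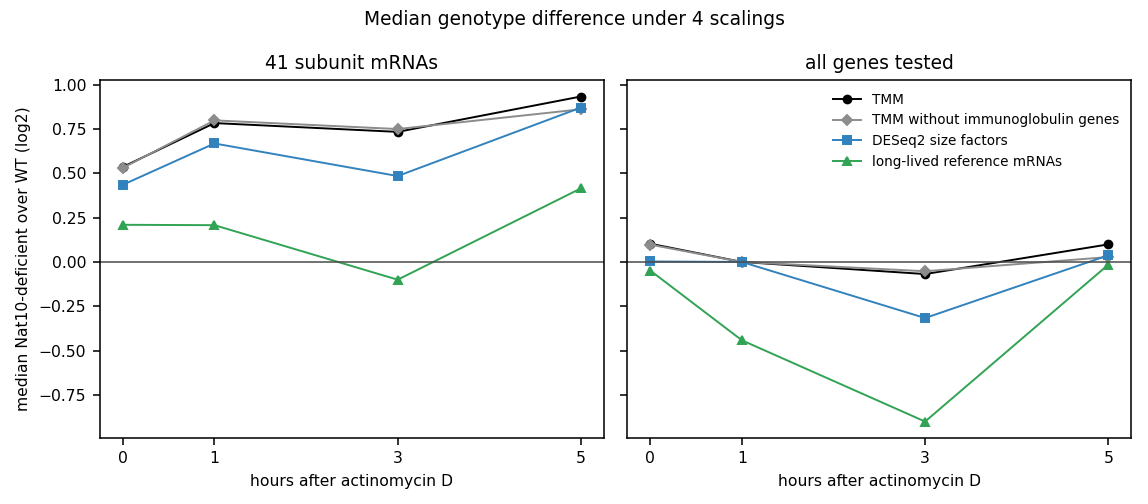
Median log2 difference between libraries labelled Nat10-deficient and WT libraries at 0, 1, 3 and 5 h, for the 41 subunit mRNAs on the left and all genes tested on the right, under 4 scalings. With long-lived reference mRNAs the subunits' median is -0.10 at 3 h, the only one of these 16 subunit medians below 0, while that of all genes is -0.90.

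Markers of other cell types and of cell division moved with the genotype label as well. Over the mean of the times, LT-HSC markers were higher in 1 and lower in 13 of 14 tested, with summed levels of 376 to 1111 CPM in libraries labelled Nat10-deficient and 1030.0 to 2406 CPM in WT libraries, and none of the 14 was at 0 counts in any group. Dividing-cell markers were higher in 12 and lower in 0 of 12 tested, with summed levels of 1875 to 2696 CPM in libraries labelled Nat10-deficient and 844 to 1110.5 CPM in WT libraries. Mast and basophil lineage markers were higher in 8 and lower in 0 of 8 tested, with summed levels of 393 to 4530.2 CPM in libraries labelled Nat10-deficient and 117 to 1002 CPM in WT libraries, with Cma1 at 0 counts in WT libraries at 1, 3 and 5 h. Erythroid markers were higher in 8 and lower in 1 of 11 tested, with summed levels of 3696 to 12887 CPM in libraries labelled Nat10-deficient and 2338 to 3684 CPM in WT libraries. Eosinophil markers were higher in 6 and lower in 1 of 8 tested, with summed levels of 1107 to 6122 CPM in libraries labelled Nat10-deficient and 180.0 to 3827 CPM in WT libraries, with Siglecf and Ccr3 at 0 counts in WT libraries at 5 h. Plasma and B cell markers were higher in 0 and lower in 12 of 14 tested, with summed levels of 4089 to 31868 CPM in libraries labelled Nat10-deficient and 2615 to 167918 CPM in WT libraries, although 13 of the 14 were higher at 0 h, when Mzb1 and Pax5 were at 0 counts in WT libraries. Neutrophil and monocyte markers were higher in 5 and lower in 7 of 12 tested, with summed levels of 8814 to 20907 CPM in libraries labelled Nat10-deficient and 3292 to 13083 CPM in WT libraries. Megakaryocyte and platelet markers were higher in 4 and lower in 1 of 5 tested, with summed levels of 399.5 to 498 CPM in libraries labelled Nat10-deficient and 225 to 599 CPM in WT libraries, with Gp1bb at 0 counts in each group and Ppbp in WT libraries at 5 h. Stroma and endothelium markers were higher in 3 and lower in 3 of 8 tested, with summed levels of 68.5 to 149 CPM in libraries labelled Nat10-deficient and 63.8 to 76.9 CPM in WT libraries. Single times differed from this mean: at 3 h LT-HSC markers were higher in 5 and lower in 6 (median -0.035), and at 1 h mast and basophil markers were higher in 3 and lower in 4 (median -0.050). At 1 h stroma and endothelium markers were higher in 1 and lower in 4, and at 0, 1 and 3 h more neutrophil and monocyte markers were higher than lower (6 and 3, 6 and 4, and 6 and 5). Megakaryocyte and platelet markers were higher in 2 and lower in 2 at 0 h. Immunoglobulin genes took 6.98, 9.80, 27.4 and 4.32% of gene counts at 0, 1, 3 and 5 h in libraries labelled Nat10-deficient, against 3.92, 27.9, 55.1 and 66.5% in WT libraries. With these genes left out of the scaling, 39 subunits were still called higher over the mean of the times (median 0.76). With scaling on long-lived reference mRNAs 14 of 14 LT-HSC markers were lower and 11 of 12 dividing-cell markers higher. With ERCC scaling 14 and 12 were higher, as were 14 of 14 plasma and B cell, 12 of 12 neutrophil and monocyte and 8 of 8 stroma and endothelium markers. The part of the marker genes in the subunit differences was not tested.

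In complex I, 19 of 21 subunits were higher and 0 lower over the mean of the times (median 0.66). At an unadjusted p under 0.05 0 were lower, and 1, Ndufv3, by DESeq2. Scaling on long-lived reference mRNAs gave 12 higher and 4 lower. The electron input module, which takes electrons from NADH, had 6 of 7 higher (median 0.80). Ndufv1, which binds NADH and the flavin, differed by 0.92 ± 0.022, the iron-sulphur subunit Ndufs1 by 0.80 ± 0.023, and Ndufv2, which carries a further iron-sulphur cluster, by 0.89 ± 0.036 on the log2 scale. The accessory subunits Ndufs6 and Ndufa2 differed by 0.85 ± 0.095 and 0.39 ± 0.062. Ndufa2 lost its call at 0 h without the second file labelled Nat10-deficient of 0 h (0.27), and at 3 h without the second file of 3 h in either genotype (0.35 labelled Nat10-deficient and 0.20 WT). It gained one at 5 h without either WT file of 3 h or the first of 5 h (0.33 to 0.49). Ndufs6 lost its call at 3 h without the second WT file of 3 h (0.35). Ndufv3, a small accessory subunit of this module (ENSMUSG00000024038, GRCm39 chr17:31739089-31750305, plus strand), had 46.8 and 45.7 (0 h), 60.3 and 61.0 (1 h), 42.4 and 45.7 (3 h) and 53.2 and 54.2 (5 h) TMM-scaled CPM in libraries labelled Nat10-deficient. In WT libraries Ndufv3 had 45.8 and 47.8 (0 h), 57.8 and 57.4 (1 h), 36.5 and 40.2 (3 h) and 66.2 and 65.0 (5 h) TMM-scaled CPM. Its files overlapped at 0 h, were higher in those labelled Nat10-deficient at 1 and 3 h and lower at 5 h. As a mean over the times it was not called (log2 -0.0076 ± 0.036, edgeR adjusted p = 1.00). At 5 h it was the one subunit called lower (log2 -0.29 ± 0.077, adjusted p = 4.63e-04). Its 3 h call (log2 0.20) was lost when the second file labelled Nat10-deficient of 3 h, the first WT file of 3 h or either WT file of 5 h was left out (0.085 to 0.16). The 5 h call was lost without either WT file of 3 h (-0.12) and without either WT file of 5 h (-0.10 without the first and -0.13 without the second). TMM factors were estimated anew with each file left out, so differences at other times moved too. Without the first WT file of 3 h the 5 h difference of Ndufa2 went from 0.16 to 0.33 and that of Ndufa10 from 0.20 to 0.37. Calls lost or gained in this way thus also carry a shift of the TMM scale.

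Ndufs4, an accessory subunit whose loss in mice causes a mitochondrial disease (ENSMUSG00000021764, GRCm39 chr13:114424331-114524794, minus strand), had 72.3 and 67.7 (0 h), 78.8 and 83.5 (1 h), 63.3 and 65.4 (3 h) and 106 and 105 (5 h) TMM-scaled CPM in libraries labelled Nat10-deficient. In WT libraries Ndufs4 had 52.5 and 49.7 (0 h), 51.6 and 50.2 (1 h), 54.2 and 61.2 (3 h) and 37.3 and 35.2 (5 h) TMM-scaled CPM. The files did not overlap at any time, and WT levels were lowest at 5 h, when libraries labelled Nat10-deficient had their highest. The log2 difference was 0.45, 0.67, 0.16 and 1.54 at 0, 1, 3 and 5 h. The 3 h call (adjusted p = 0.0377) was lost without the second file labelled Nat10-deficient of 3 h (log2 0.14), without the first WT file of 3 h (0.025) and without either WT file of 5 h (0.12).

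The quinone module, which hands electrons to ubiquinone, had 5 of 5 subunits higher (median 0.64). Ndufs8, which carries 2 iron-sulphur clusters on the way to the quinone (ENSMUSG00000059734, GRCm39 chr19:3958863-3962774, minus strand), had 98.2 and 97.0 (0 h), 121 and 112 (1 h), 130.0 and 128 (3 h) and 191 and 179 (5 h) TMM-scaled CPM in libraries labelled Nat10-deficient. In WT libraries Ndufs8 had 68.7 and 63.8 (0 h), 70.6 and 69.2 (1 h), 81.4 and 80.7 (3 h) and 141 and 136 (5 h) TMM-scaled CPM. The highest WT file, of 5 h, stood above the 0 h files labelled Nat10-deficient, but at each time both files labelled Nat10-deficient were above both WT files (log2 0.59 ± 0.025, edgeR quasi-likelihood test with Benjamini-Hochberg adjusted p = 5.80e-62). Ndufs7, which holds the last cluster before the quinone, differed by 0.64 ± 0.034, and Ndufa9, an accessory subunit at the joint of the arms, by 0.91 ± 0.022 on the log2 scale. Ndufa5, another accessory subunit, differed by 0.74 ± 0.065, and its 3 h call (log2 0.35) was lost without the second file labelled Nat10-deficient of 3 h, the first WT file of 3 h or either WT file of 5 h (0.19 to 0.31). Ndufs3 had the smallest difference of the module (0.39 ± 0.023), with 0.14 at 3 h, a call lost without the first file labelled Nat10-deficient of 3 h and without any 1 of the 4 WT files of 3 and 5 h, where it ran from 0.078 to 0.12.

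The membrane arm, which pumps protons, had 8 of 9 nuclear-encoded subunits higher (median 0.62). Ndufs5 (0.92 ± 0.13) and Ndufb3 (0.80 ± 0.042) were at the upper end on the log2 scale, and Ndufb10, at 0.53 to 0.58 over the 4 times, varied least over the times. Ndufa8, Ndufb5, Ndufb8 and Ndufb9, accessory subunits as well, differed by 0.66 ± 0.035, 0.62 ± 0.026, 0.60 ± 0.045 and 0.59 ± 0.029. The 3 h call of Ndufb8 (log2 0.24) was lost without the second file labelled Nat10-deficient of 3 h or any 1 of the 4 WT files of 3 and 5 h (0.16 to 0.24). Ndufa10, an accessory subunit of the membrane arm (ENSMUSG00000026260, GRCm39 chr1:92366732-92401582, minus strand), had 21.2 and 19.2 (0 h), 21.1 and 21.5 (1 h), 21.9 and 25.3 (3 h) and 30.5 and 31.6 (5 h) TMM-scaled CPM in libraries labelled Nat10-deficient. In WT libraries Ndufa10 had 16.2 and 14.0 (0 h), 18.1 and 18.6 (1 h), 15.2 and 14.6 (3 h) and 24.8 and 29.8 (5 h) TMM-scaled CPM. The files were apart at each time, and at 1 and 5 h the difference did not pass the test (log2 0.22, adjusted p = 0.0582, and 0.20, adjusted p = 0.124). Without any 1 of the 4 WT files of 3 and 5 h it passed at 1 h (log2 0.24), and without 3 of them at 5 h (0.37 to 0.49). Ndufb6 was close to the limit of detection, with raw counts of 6 to 24 per file in libraries labelled Nat10-deficient and 0 to 15 in WT libraries. Its levels were 1.15 and 0.467 (0 h), 0.959 and 0.427 (1 h), 0.462 and 0.887 (3 h) and 0.837 and 1.10 (5 h) TMM-scaled CPM in libraries labelled Nat10-deficient, and 0.778 and 0.565 (0 h), 0.257 and 0 (1 h), 0.270 and 0.426 (3 h) and 0.507 and 2.07 (5 h) in WT libraries. The mean over the times was not called (log2 0.77 ± 0.35, edgeR adjusted p = 0.0554), and leaving out 1 file at a time moved it between 0.57 and 1.80, with its 1 h call lost (1.51 and 1.40) without the first file labelled Nat10-deficient or the second WT file of 1 h, and its mean past the threshold without the second file labelled Nat10-deficient of 0 h or 1 h, its first of 3 h, the first WT file of 1 h or the second of 5 h.

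Complex II, the one complex made wholly from nuclear genes, had 4 of 4 subunits higher (median 0.88), the membrane anchors more than the catalytic head. Scaling on long-lived reference mRNAs gave 3 higher and 1 lower. The flavoprotein Sdha, which oxidises succinate, differed by 0.52 ± 0.013, and the iron-sulphur subunit Sdhb by 0.79 ± 0.027 on the log2 scale. Sdhc, one of the pair of anchors that hold the haem (ENSMUSG00000058076, GRCm39 chr1:170954734-170978172, minus strand), had 118 and 119 (0 h), 129.7 and 130.2 (1 h), 125 and 129.6 (3 h) and 209 and 211 (5 h) TMM-scaled CPM in libraries labelled Nat10-deficient. In WT libraries Sdhc had 63.2 and 60.4 (0 h), 69.8 and 66.7 (1 h), 80.3 and 76.7 (3 h) and 73.5 and 71.8 (5 h) TMM-scaled CPM. No file labelled Nat10-deficient was as low as the highest WT file, and the difference was the largest of the 41 over the mean of the times (log2 1.02 ± 0.026, edgeR quasi-likelihood test with Benjamini-Hochberg adjusted p = 6.77e-104). Sdhd, the other anchor (ENSMUSG00000000171, GRCm39 chr9:50507657-50515112, minus strand), had 330.1 and 320.5 (0 h), 384 and 392 (1 h), 415 and 422 (3 h) and 793 and 797 (5 h) TMM-scaled CPM in libraries labelled Nat10-deficient. In WT libraries Sdhd had 218 and 217 (0 h), 207 and 215 (1 h), 184 and 188 (3 h) and 335 and 338 (5 h) TMM-scaled CPM. Here too the groups did not overlap at any time, and the log2 difference was 0.58 at 0 h and 1.24 at 5 h (0.97 ± 0.016 over the mean, adjusted p = 1.16e-142).

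In complex III 6 of 6 subunits were higher over the mean of the times (median 0.82), with larger log2 differences in the 3 core subunits than in the 3 small ones. With reference scaling 4 higher and 2 lower were called. Uqcrc1, a core subunit that faces the matrix (ENSMUSG00000025651, GRCm39 chr9:108765701-108778691, plus strand), had 649 and 645 (0 h), 799 and 783 (1 h), 726 and 771 (3 h) and 1353 and 1372 (5 h) TMM-scaled CPM in libraries labelled Nat10-deficient. In WT libraries Uqcrc1 had 465 and 461 (0 h), 416 and 416 (1 h), 337 and 349 (3 h) and 494 and 475 (5 h) TMM-scaled CPM. The levels were farthest apart at 5 h, when both files labelled Nat10-deficient had their highest and the WT files were near their 0 h level (log2 1.01 ± 0.013, edgeR quasi-likelihood test with Benjamini-Hochberg adjusted p = 4.03e-163). The log2 difference was 0.48, 0.93, 1.13 and 1.49 at 0, 1, 3 and 5 h. The other core subunit Uqcrc2 and the Rieske iron-sulphur protein Uqcrfs1 differed by 0.85 ± 0.024 and 0.85 ± 0.033 over the mean. Among the small subunits Uqcrb, which lies near the quinone site, differed by 0.79 ± 0.031; 3 pseudogenes hold near-identical stretches of its transcript, and how reads were shared among such copies is not given in the sources used here.

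Uqcrq, a small membrane subunit (ENSMUSG00000044894, GRCm39 chr11:53318749-53321658, minus strand), had 61.0 and 62.3 (0 h), 78.0 and 74.1 (1 h), 93.4 and 99.8 (3 h) and 134 and 132 (5 h) TMM-scaled CPM in libraries labelled Nat10-deficient. In WT libraries Uqcrq had 38.5 and 34.3 (0 h), 49.9 and 48.4 (1 h), 71.4 and 71.3 (3 h) and 124 and 114 (5 h) TMM-scaled CPM. WT levels climbed with time more than those labelled Nat10-deficient, so that the log2 difference was 0.76, 0.63, 0.44 and 0.15 at the successive times. The 5 h call (adjusted p = 0.0151) was lost without the first file labelled Nat10-deficient of 5 h (0.14). Uqcrh, the acidic hinge protein that helps cytochrome c bind (ENSMUSG00000063882, GRCm39 chr4:115924162-115932268, minus strand), had 18.7 and 18.6 (0 h), 16.7 and 16.9 (1 h), 15.5 and 15.5 (3 h) and 16.5 and 17.0 (5 h) TMM-scaled CPM in libraries labelled Nat10-deficient. In WT libraries Uqcrh had 17.2 and 15.7 (0 h), 14.4 and 14.2 (1 h), 11.1 and 10.8 (3 h) and 17.9 and 18.8 (5 h) TMM-scaled CPM. The groups overlapped in none of the 4 times, but were higher in the files labelled Nat10-deficient at the first 3 times and lower at 5 h, and of the single times only 3 h passed the test (log2 0.50 ± 0.15, adjusted p = 0.00223). Its mean difference over the times was 0.20 ± 0.065 (adjusted p = 0.00647), and -0.37 with scaling on long-lived reference mRNAs. Without any 1 of the 4 WT files of 3 and 5 h the 1 h difference passed too (log2 0.26).

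Each of the 7 complex IV subunits was called higher over the mean of the times (median 0.81). Reference scaling gave 5 higher and 0 lower. Cox4i1, the ubiquitous form of subunit 4, differed by 0.60 ± 0.020, the zinc-binding Cox5b by 0.81 ± 0.046, and the small membrane-spanning subunits Cox6c and Cox7b by 0.95 ± 0.029 and 0.92 ± 0.044 on the log2 scale. Cox5a, which sits on the matrix side beside the catalytic core (ENSMUSG00000000088, GRCm39 chr9:57428557-57439709, plus strand), had 89.8 and 93.8 (0 h), 102 and 95.7 (1 h), 108 and 105 (3 h) and 196 and 187 (5 h) TMM-scaled CPM in libraries labelled Nat10-deficient. In WT libraries Cox5a had 58.0 and 52.7 (0 h), 45.9 and 50.9 (1 h), 55.8 and 52.7 (3 h) and 86.1 and 73.0 (5 h) TMM-scaled CPM. The groups did not overlap at any time (log2 1.00 ± 0.029, edgeR quasi-likelihood test with Benjamini-Hochberg adjusted p = 4.64e-92). Cox8a, a single-span subunit (ENSMUSG00000035885, GRCm39 chr19:7192518-7194981, minus strand), had 158 and 165 (0 h), 176 and 179 (1 h), 216 and 215 (3 h) and 302 and 310.2 (5 h) TMM-scaled CPM in libraries labelled Nat10-deficient. In WT libraries Cox8a had 105 and 103 (0 h), 93.2 and 89.4 (1 h), 135 and 133 (3 h) and 199.95 and 183 (5 h) TMM-scaled CPM. The lowest file labelled Nat10-deficient at each time was above the highest WT file of that time (log2 0.74 ± 0.021, edgeR quasi-likelihood test with Benjamini-Hochberg adjusted p = 2.20e-94).

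Cox7c, another single-span subunit (ENSMUSG00000017778, GRCm39 chr13:86192935-86195023, minus strand), had 8.07 and 7.66 (0 h), 5.11 and 4.65 (1 h), 3.16 and 4.88 (3 h) and 3.99 and 5.56 (5 h) TMM-scaled CPM in libraries labelled Nat10-deficient. In WT libraries Cox7c had 7.16 and 7.01 (0 h), 4.11 and 4.67 (1 h), 2.16 and 1.42 (3 h) and 4.39 and 6.62 (5 h) TMM-scaled CPM. This subunit was the exception of the complex: its groups overlapped at 1 and 5 h and were apart at 0 and 3 h. The log2 difference was 0.15, 0.16, 1.16 and -0.17 at 0, 1, 3 and 5 h, with WT counts of only 16 and 10 at 3 h. Over the mean of the times it was 0.32 ± 0.13 (adjusted p = 0.0231), a call lost without the second file labelled Nat10-deficient of 3 h (0.24) or of 5 h (0.26), the first WT file of 1 h (0.30), the second of 3 h (0.30) or the first of 5 h (0.30). The 3 h call was lost without the second file of 3 h in either genotype (0.81 labelled Nat10-deficient and 0.87 WT). The transcript has near-identical stretches in 4 pseudogenes, so its counts are uncertain; the same holds for Cox6c, Cox7b and Atp5c1 with 2 each and, with 1 other gene or pseudogene each, for Ndufs3, Ndufs5, Ndufs6, Ndufb3, Ndufb8, Ndufb9 and Cox5b.

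The 3 subunits of the ATP synthase head measured here were higher at each of the 4 times. Reference scaling gave 3 higher and 0 lower over their mean. Atp5b had 2197 and 2196 (0 h), 2404 and 2383 (1 h), 2819 and 2839.8 (3 h) and 5102 and 5099 (5 h) TMM-scaled CPM in libraries labelled Nat10-deficient. In WT libraries Atp5b had 1450.4 and 1449 (0 h), 1217 and 1215 (1 h), 1302 and 1311 (3 h) and 2393 and 2423 (5 h) TMM-scaled CPM. At each time the files labelled Nat10-deficient were far above the WT files, and the 2 files of a group lay close together (log2 0.94 ± 0.0096, edgeR quasi-likelihood test with Benjamini-Hochberg adjusted p = 1.15e-188). Atp5a1 (ENSMUSG00000025428) had 792 and 790.3 (0 h), 831 and 829.9 (1 h), 825 and 821 (3 h) and 1409.7 and 1417 (5 h) TMM-scaled CPM in libraries labelled Nat10-deficient. In WT libraries Atp5a1 had 556 and 535 (0 h), 512 and 493 (1 h), 415 and 409 (3 h) and 589 and 595 (5 h) TMM-scaled CPM. The lowest file labelled Nat10-deficient was above the highest WT file of any time (log2 0.88 ± 0.013, edgeR quasi-likelihood test with Benjamini-Hochberg adjusted p = 4.59e-155). Atp5c1, the gamma subunit that turns within the head, differed by 0.71 ± 0.015.

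**Figure D4:**
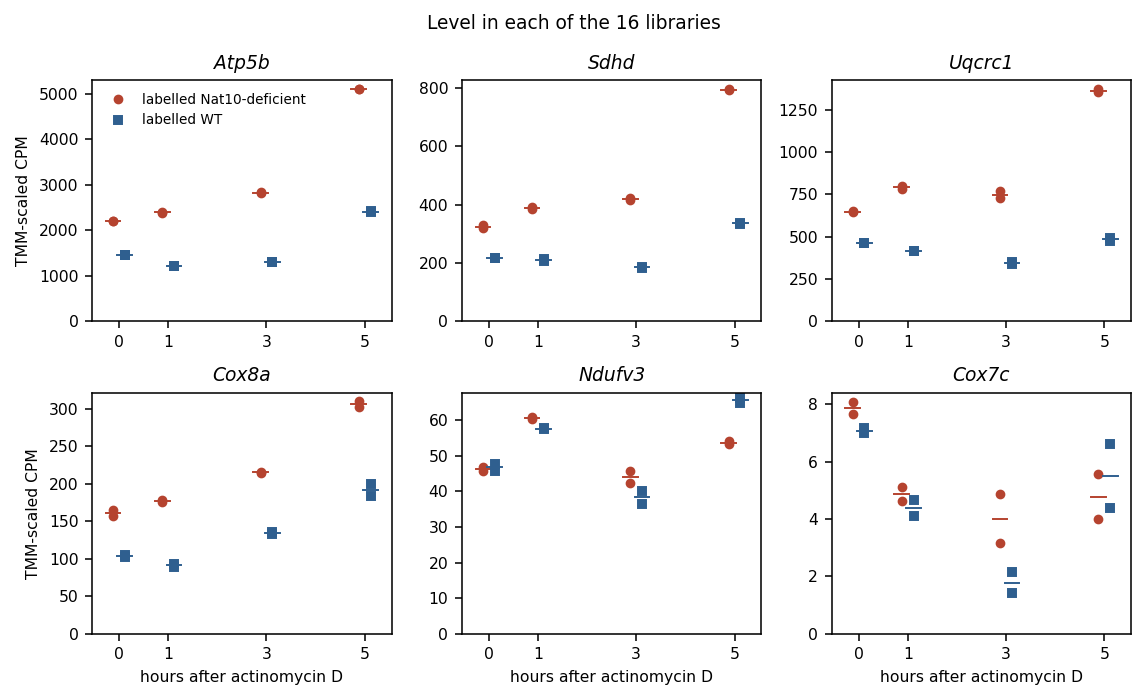
TMM-scaled CPM of 6 subunit mRNAs in each of the 16 libraries, by hours after actinomycin D; circles are libraries labelled Nat10-deficient, squares WT libraries and dashes the group means. Atp5b, Sdhd, Uqcrc1 and Cox8a are apart at each time, Ndufv3 overlaps at 0 h and is lower at 5 h, and Cox7c overlaps at 1 and 5 h.

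After transcription was stopped, the subunit mRNAs fell in both genotypes when set against the ERCC spike-in, most of it within the first hour, with their median above that of all genes. Per ERCC count, the median subunit had 44.4%, 31.4% and 29.1% of its 0 h level left at 1, 3 and 5 h in libraries labelled Nat10-deficient, and 50.3%, 43.3% and 33.6% in WT libraries. For all genes tested with counts at 0 h the medians were 36.9%, 24.9% and 13.4% in libraries labelled Nat10-deficient, and 46.3%, 37.7% and 16.2% in WT libraries. These are medians of 22287 and 19764 genes, which are not the same set in both genotypes. They were not matched to the subunits in level. A straight line over the 4 times sums up a bent course. Its slope was below 0 and called for 41 of 41 in libraries labelled Nat10-deficient (71.3% of all genes) and above 0 for 0 (3.19%), with a median of -0.32 log2 per hour against -0.48 for all genes. In WT libraries 40 fell (57.4%) and 0 rose (11.1%), with medians of -0.27 and -0.36. For the counts of 0, edgeR at an unadjusted p under 0.05 and DESeq2 gave 0 as well. Ndufb6 was the one WT subunit not called (log2 -0.098 ± 0.14 per hour, adjusted p = 0.636). Put as times, the median slopes correspond to half-lives of 3.16 h in libraries labelled Nat10-deficient and 3.67 h in WT libraries. These restate the fitted line and are no measured decay times, as only 44.4% and 50.3% were left at 1 h. The same holds for the half-lives given below. With the files of each group summed, 15 of 41 fell in libraries labelled Nat10-deficient (35.4% of all genes) and 6 in WT libraries (26.7%), the first share close to that of all genes and the second below it. Markers of other cell types did not all fall. In WT libraries plasma and B cell markers rose per ERCC count in 11 of 14 and fell in 1 (median 0.49 log2 per hour), eosinophil markers rose in 4 of 8 and fell in 2, and neutrophil and monocyte markers rose in 5 of 12 and fell in 5. In libraries labelled Nat10-deficient plasma and B cell markers fell in 14 of 14 (median -0.68). The slope difference was below 0 for 14 of these 14. The part of such markers in the subunits' slopes, half-lives and slope differences was not tested.

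By complex, the half-life of the median slope ran in libraries labelled Nat10-deficient from 2.97 h (complex III) to 3.28 h (complex IV), with 3.03 h for complex I, 3.04 h for complex II and 3.26 h for complex V. In WT libraries it was 2.73 h for complex III, 3.45 h for complex V, 3.52 h for complex II, 3.78 h for complex I and 4.99 h for complex IV. The differences between complexes were not tested, and members of a complex are not replicates.

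Single subunits ranged widely. Cox7c fell fastest in both genotypes: its level per 1000 ERCC counts was 44.2 and 42.9 (0 h), 11.2 and 10.1 (1 h), 4.79 and 7.28 (3 h) and 3.30 and 4.78 (5 h) in libraries labelled Nat10-deficient. In WT libraries it was 0.552 and 0.561 (0 h), 0.166 and 0.192 (1 h), 0.0737 and 0.0488 (3 h) and 0.0736 and 0.113 (5 h). The fitted lines give half-lives of 1.64 h and 1.98 h (log2 -0.61 ± 0.034 and -0.51 ± 0.044 per hour). Most of the loss came within 1 h, however, and the WT mean did not fall from 3 to 5 h, so these are not decay times. Uqcrh was next in libraries labelled Nat10-deficient, with 35.4%, 22.6% and 13.7% left at 1, 3 and 5 h (half-life 1.94 h, against 2.64 h in WT libraries). In WT libraries the second steepest was Ndufs4, of which 51.8%, 49.3% and 15.3% was left at 1, 3 and 5 h (half-life 2.10 h, against 2.50 h in libraries labelled Nat10-deficient). At the slow end of libraries labelled Nat10-deficient were Sdhd and Atp5b, with half-lives of 4.00 h and 3.96 h, against 3.52 h and 4.10 h in WT libraries. Per 1000 ERCC counts Atp5b was at 12038 and 12314 (0 h), 5246 and 5174 (1 h), 4276 and 4239 (3 h) and 4224 and 4391 (5 h) in libraries labelled Nat10-deficient. In WT libraries it was at 112 and 116 (0 h), 49.3 and 49.98 (1 h), 44.5 and 45.0 (3 h) and 40.1 and 41.3 (5 h). From 3 to 5 h the level thus hardly moved in either genotype. In WT libraries Uqcrq was slowest among the called subunits, with 70.2%, 85.7% and 70.6% left (log2 -0.061 ± 0.013 per hour, adjusted p = 2.92e-06), against 48.5%, 42.5% and 32.9% in libraries labelled Nat10-deficient (log2 -0.27 ± 0.010 per hour). The slopes of the 41 in the 2 genotypes had Pearson's r = 0.54 and Spearman's rho = 0.51 across genes, which share libraries and spike-in counts and are no independent replicates.

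**Figure D5:**
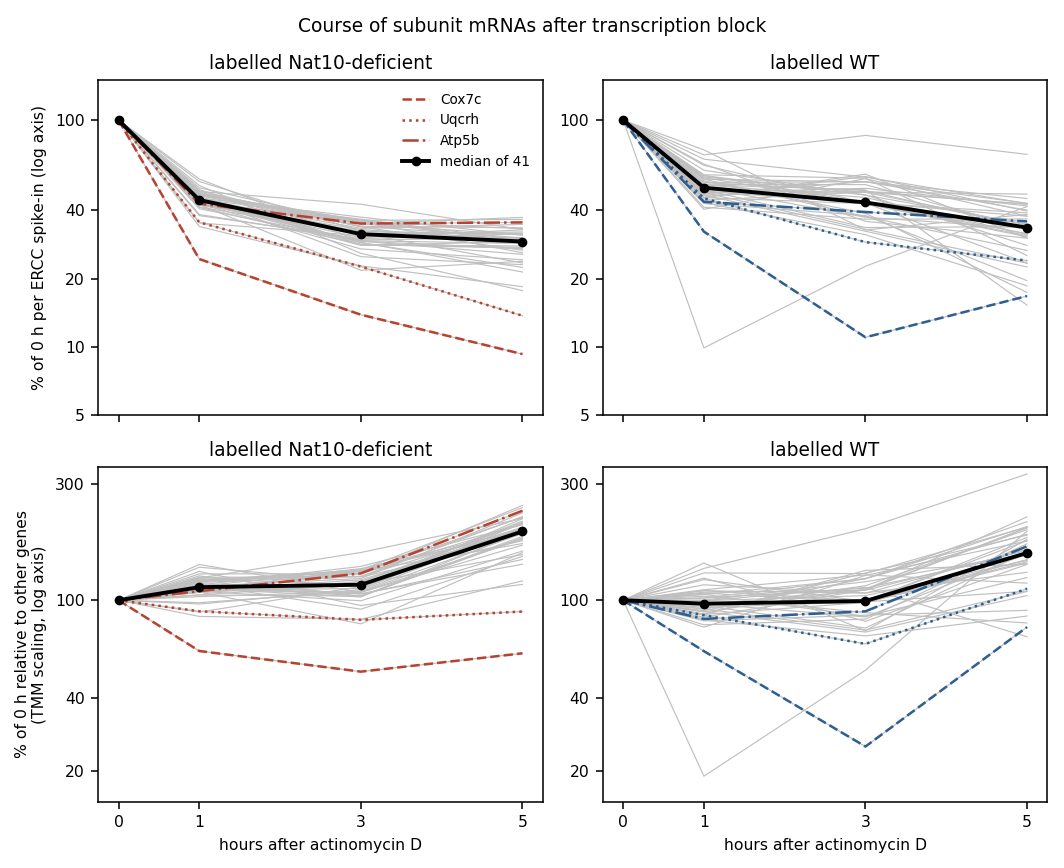
Percent of the 0 h level left at 1, 3 and 5 h for the 41 subunit mRNAs (grey) and their median (black), on log axes, per ERCC spike-in count in the upper row and relative to other genes (TMM scaling) in the lower row, with libraries labelled Nat10-deficient on the left and WT libraries on the right. Per spike-in the median ends at 29.1% in libraries labelled Nat10-deficient and 33.6% in WT libraries, and relative to other genes at 191% and 156%.

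Relative to the other genes, the same mRNAs gained ground as time passed. With TMM scaling the median subunit stood at 113%, 116% and 191% of its 0 h level at 1, 3 and 5 h in libraries labelled Nat10-deficient, and at 96.9%, 99.3% and 156% in WT libraries. This relative slope was called above 0 for 37 of 41 in libraries labelled Nat10-deficient (29.0% of all genes) and below 0 for 1, Cox7c (31.8%), with a median of 0.17 log2 per hour. In WT libraries 31 were above 0 (28.1%) and 4 below (31.2%), with a median of 0.12; these 4 were Ndufs4, Ndufv2, Ndufa8 and Cox7c. On summed files 0 were above and 0 below 0 in libraries labelled Nat10-deficient (0.0439% and 1.14% of all genes), and 1 and 0 in WT libraries (0.75% and 1.85%). At an unadjusted p under 0.05 edgeR gave 22 and 0, and 10 and 0. The shares of all genes at that threshold were not worked out. DESeq2 was not run there. With scaling on long-lived reference mRNAs 17 were above (12.0% of all genes) and 11 below 0 (51.8%) in libraries labelled Nat10-deficient, with a median of 0.012 against -0.15 for all genes. In WT libraries 13 were above (19.8%) and 14 below (42.7%), with medians of 0.0026 and -0.13. The set's medians were thus near 0 under this scaling. Their place above those of all genes is not tested by a change of scaling.

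Whether the 2 genotypes lost these mRNAs at different rates was tested as the difference of their slopes, labelled Nat10-deficient minus WT. Per ERCC count, 7 of 41 had a slope closer to 0 in libraries labelled Nat10-deficient (15.7% of all genes) and 18 a steeper one (32.1%), with a median of -0.048 log2 per hour against -0.096 for all genes; the share of the 7 is close to that of all genes. Steeper slopes in libraries labelled Nat10-deficient included 4 of the 7 complex IV subunits, Cox4i1, Cox6c, Cox7b and Cox8a, and the largest called differences were -0.21 for Uqcrq, -0.15 for Ndufa2 and -0.14 for Ndufv3. The 7 with a slope closer to 0 were Ndufs1, Ndufs4, Ndufv2, Ndufa8, Sdhd, Uqcrc1 and Atp5a1, by 0.034 to 0.090 log2 per hour. Relative to the other genes 21 were above 0 (24.5%) and 4 below (24.2%), with a median of 0.046. With reference scaling 14 were above (20.8%) and 9 below 0 (27.6%). In 11 subunits both the ERCC and the TMM scaling called the same sign, namely the 7 named and, below 0, Ndufs8, Ndufv3, Ndufb5 and Uqcrq. Both scalings use the same counts and give all genes of a library the same factor, so this is no second test. The TMM value lay above the ERCC value in each of the 11, such as 0.14 and 0.048 for Ndufs1 and -0.12 and -0.21 for Uqcrq. The share of all genes with a shared sign was not worked out.

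The 5 h libraries carried much of this. Without them 1 subunit, Sdha, had a slope closer to 0 in libraries labelled Nat10-deficient (10.2% of all genes) and 32 a steeper one (43.5%), and each of the 7 above turned to below 0, among them Ndufs4 to -0.34 and Uqcrc1 to -0.017 log2 per hour. Uqcrq kept its sign at -0.32. With the files of each group summed, 0 and 0 subunits were called (0.0399% and 0.239% of all genes), with 0 and 0 at an unadjusted p under 0.05 by edgeR; DESeq2 was not run on the summed files. Leaving out the first WT file of 5 h ended the call of Ndufs1 (0.026), and leaving out the second ended those of Ndufa10 (-0.080) and Uqcrc2 (-0.035).

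With TMM scaling most subunit genes outside the set were also higher in libraries labelled Nat10-deficient. With scaling on long-lived reference mRNAs 21 of 36 were higher and 8 lower (median 0.18). Of 36 further nuclear-encoded subunits or close partners, 32 were higher and 1 lower over the mean of the times (median 0.74). The largest log2 difference was that of Atpif1, an inhibitor of ATP synthase (1.17 ± 0.037), followed by the complex I subunit Ndufc2 (1.09 ± 0.028). At the other end were Ndufb2 (-0.12 ± 0.083, not called) and Cox7a2l, a factor in supercomplex assembly (-0.049 ± 0.015), which was the 1 called lower. Of the 13 mRNAs encoded by mitochondrial DNA, 12 were higher and 1 lower (median 0.75). With reference scaling 6 were higher and 5 lower (median 0.19). The complex I subunits mt-Nd3 and mt-Nd4l differed most (2.26 ± 0.20 and 2.20 ± 0.24), while mt-Co1, the catalytic subunit of complex IV, was lower (-0.091 ± 0.0085) and the complex III subunit mt-Cytb was next (0.17 ± 0.010). At 5 h alone, 6 of these 13 were higher and 3 lower. Both genomes' mRNAs fell per ERCC count: for the mitochondrial mRNAs 13 of 13 in libraries labelled Nat10-deficient and 11 in WT libraries, with median slopes of -0.44 and -0.24 log2 per hour.

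Of 44 assembly factors, which build the complexes without being part of them, 29 were higher and 5 lower over the mean of the times (median 0.43), and 16 and 7 at 0 h (median 0.059). Reference scaling turned this to 8 higher and 19 lower over the mean (median -0.13). Ndufaf5 and Sdhaf3 had the largest differences (1.19 ± 0.10 and 1.01 ± 0.14) and Cox20 and Ttc19 the smallest (-1.54 ± 0.34 and -0.91 ± 0.11). Of 11 regulators of mitochondrial genes, 7 were higher and 2 lower (median 0.24). With reference scaling 2 were higher and 6 lower (median -0.32). Yy1 (0.96 ± 0.075) and the coactivator Ppargc1b (0.89 ± 0.11) were at the upper end, and the coactivator Ppargc1a (-0.61 ± 0.24) and the mitochondrial transcription factor Tfb2m (-0.21 ± 0.064) at the lower. Of the factors whose words were searched in the promoters, Nrf1 differed by 0.16 ± 0.048 and Gabpa by 0.56 ± 0.042. Of 7 tissue-specific isoforms 4 were tested; Cox6b2, known from testis, was higher (1.12 ± 0.075) and Cox6a2, known from heart and muscle, lower (-1.92 ± 0.21), while Cox4i2 (-0.17 ± 0.20) and Ndufa4l2 were not called. These lists were tested with the same edgeR fit over all genes.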

How the data were processed

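Expression was measured by Smart-seq2 on polyadenylated RNA in 16 libraries, with ERCC spike-in RNA. The deposited values are raw fragment counts per gene, made by the authors with featureCounts 1.6.3 and an Ensembl release 105 annotation, without strand, per the file headers; reads were aligned with STAR to GRCm39, per the submitters' processing notes. The files held 55414 gene entries and 92 ERCC entries. Genes with enough counts in edgeR's filterByExpr filter (25081) were tested with edgeR 4.0.16's quasi-likelihood test and Benjamini-Hochberg adjustment over all of them, a call being an adjusted p under 0.05. TMM factors scaled the genotype fit (genotype by time as 8 groups) and the relative slopes, and ERCC counts the slopes of loss; a slope is the least-squares line through a genotype's 4 group means, in log2 per hour. Standard errors were worked back from the test. Alternatives were DESeq2 1.42.0 and its size factors in edgeR, no filter, each library left out, the replicate number as a block, summed files, other scalings and no 5 h libraries. R 4.3.3, limma 3.58.1, Python 3.11.15, pandas 2.3.3, matplotlib 3.10.9 and BLAST 2.17.0 were used; the fits were tested on simulated data. Reads carried no molecular identifiers and PCR copies are not independent, so the errors cover counting and file-to-file spread only. Total counts ranged from 9142413 to 17274128 per file. Gene symbols came from GENCODE names by Ensembl identifier, and 94.0% of gene entries had one. Near-identical copies were stretches of at least 100 bases at 95% identity or more between transcripts. The members, gene lists and tests were chosen with earlier results of these data known. Values in every library were given for the most abundant member of each complex, the 4 largest and 4 smallest genotype differences, the 2 extremes of each slope and the 2 smallest p of each slope difference; other members were summarised. A sort at 4 h named in the protocol is not analysed here.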

Additional observations from a re-analysis of the deposited data

Results flagged for a closer look

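The slope of loss per ERCC count was called different between the genotypes in edgeR's quasi-likelihood fit of the 16 files with Benjamini-Hochberg adjustment, and had the same sign and a call relative to other genes in 11 of 41 subunits. Both scalings are of the same counts, so the shared sign is no second test. The share of all genes with a shared sign was not worked out. Values are the slope labelled Nat10-deficient minus the slope in WT, in log2 per hour. In complex I the difference was 0.048 for Ndufs1, 0.076 for Ndufs4, 0.085 for Ndufv2 and 0.080 for Ndufa8. It was -0.13 for Ndufs8, -0.14 for Ndufv3 and -0.12 for Ndufb5. The complex II anchor Sdhd differed by 0.034. In complex III the core subunit Uqcrc1 differed by 0.090 and the small subunit Uqcrq by -0.21. Atp5a1 of complex V differed by 0.048. On summed files 0 and 0 of the 41 were called above and below 0, and 0 and 0 at an unadjusted p under 0.05 by edgeR; DESeq2 was not run on them. Without the first WT file of 5 h Ndufs1 lost its call (0.026, edgeR adjusted p = 0.208). The 7 above 0 turned to below 0 without the 5 h libraries, and the 4 below 0 did not.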

How the results depend on the processing

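Counts are of the 41 subunits called higher and lower. With scaling on long-lived reference mRNAs, 2 were lower at 0 h, 4 at 1 h, 7 at 5 h and 7 over the mean of the times, and at 3 h 8 were higher and 18 lower; relative slopes were 17 above and 11 below 0 for labelled Nat10-deficient, 13 and 14 for WT, and 9 below for their difference (of all genes 12.0% and 51.8%, 19.8% and 42.7%, and 27.6%). Under it the mean differences of Cox7c (-0.24), Ndufa10 (-0.19), Uqcrh (-0.37) and Uqcrq (-0.070) turned below 0. With ERCC scaling 0 were lower at 5 h and Ndufv3 stood at 5.74. DESeq2, and its size factors in edgeR, called 1 lower over the mean and 1 WT relative slope below 0 each, and leaving immunoglobulin genes out of the scaling 2 of those slopes. Summed files gave 0 higher at 0 h, there the gap between fitted straight lines, and 0 over the mean. ERCC slopes were below 0 for 15 (labelled Nat10-deficient) and 6 (WT), with 0 and 0 slope differences. Relative slopes were 0 and 0 (labelled Nat10-deficient) and 1 and 0 (WT), with 0 and 0 differences of those. At an unadjusted p under 0.05 edgeR gave 22 and 0, 10 and 0, and 0 and 0 for the relative slopes and their differences. The shares of all genes at that threshold were not worked out. DESeq2 was not run on summed files, and summed files were not run at 1, 3 and 5 h. Without the 5 h libraries, 1 ERCC slope difference was above and 32 below 0 (10.2% and 43.5% of all genes). Relative slopes were 2 below 0 for labelled Nat10-deficient (27.8% of all genes) and 19 above and 8 below for WT (42.9% and 27.6%). Of their differences 11 were above 0 (22.0%). The 19 and the 11 are not read as particular to the set. The ERCC slope differences of Ndufs1 (-0.15), Ndufs4 (-0.34), Ndufv2 (-0.067), Ndufa8 (-0.15), Sdhd (-0.026), Uqcrc1 (-0.017) and Atp5a1 (-0.064) turned below 0 there; the cause was not tested. Leaving out 1 library at a time moved the count lower at 5 h between 0 and 1, the relative slopes below 0 between 0 and 1 (labelled Nat10-deficient) and 2 and 4 (WT), and their differences between 1 and 5 below 0. TMM factors were estimated anew each time, so the scale moved as well, also at times from which no library was left out. The other 119 counts under these alternatives stayed within 1.5 times of the reported ones, as did 338 of 352 with 1 library left out. As the 2 files of a group differ by little more than counting noise, leaving out 1 does not test the spread between samples.

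Replicate numbers are shared between groups, but same-numbered files deviated together only by r = -0.0025 to 0.037 over 8139 genes, so they share only a number. With the number as a block, the count of WT relative slopes above 0 was 32 instead of 31, and the other counts did not change. Low counts limit Ndufb6 and Cox7c, and the summed fits have few degrees of freedom among 8 libraries. The spread in the summed fits is the departure from straight lines, or from an equal genotype difference at each time. These fits thus cannot stand in for a test on separate samples. Spike-in scaling rests on few ERCC counts in libraries labelled Nat10-deficient, the lowest of which had 3819.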
